A study of Mus musculus with 12 samples.

Results

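The alpha-globin locus was taken as mm9 chr11:32080000-32220000, a window of 140 kb that holds Nprl3, the enhancers upstream of the globin genes and the alpha-globin genes themselves. Its members were all peaks that overlap this window, 123 of the 353805 peaks in 11 peak lists. Peaks were taken by position alone, without a cutoff on their values, but the members were chosen with earlier results of these data known. Whole fetal liver of C57BL/6 mouse embryos at embryonic day 14.5 gave ChIP-seq libraries for H3K27ac (2 libraries), H3K4me1 (3), H3K4me2 (2) and H3K4me3 (2), and proerythroblasts of the same strain and stage gave ATAC-seq libraries (2). No group carried a treatment or an altered allele, and a 12th sample, input DNA, was not used. In the labels, the H3K4me2 antibody comes from different suppliers in different fields, and the catalogue numbers of the H3K4me3 and H3K27ac antibodies also differ between fields, which is unsettled for every value of these 3 marks. Nothing in the labels says that libraries came from separate litters or pools, so p-values measure the spread between libraries only. Whole fetal liver is a mixture of cells, so a mark in few cells and a weaker mark in many cells cannot be told apart.

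Alpha-globin chains pair with beta-globin chains to make hemoglobin. In the mouse, Hba-x encodes the embryonic zeta chain, while Hba-a1 and Hba-a2 are near-identical copies that encode the alpha chain of fetal and adult red cells. The genes are driven by a cluster of erythroid enhancers upstream of them, several of which lie in introns of Nprl3, a widely expressed gene for a subunit of the GATOR1 complex that restrains mTORC1. Enhancers of this kind typically carry H3K4me1 and H3K27ac, and active promoters H3K4me3 and H3K27ac. In the RefSeq table for GRCm38.p6, another build than that of the files, the protein-coding genes follow each other in the order Il9r, Snrnp25, Rhbdf1, Mpg, Nprl3, Hba-x, Hba-a1, Hbq1b, Hba-a2 and Hbq1a. Only the order was used. The gene positions placed on the peaks were the adult gene starts in mm9, near 32183700 and 32196500, and no peak was assigned to Nprl3 or Hba-x by position.

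The promoters of all 4 genes were matched by symbol in RefSeq sequences of GRCm38.p6, chromosome 11. They are shown because the peaks around the adult gene starts bear on them and because the likeness of the adult copies bears on how reads can be placed. Each is the 250 bases before the gene start, 5′ to 3′ on the gene's own strand (minus for Nprl3, plus for the others). Capitals mark matches on either strand to the core GATAA of the GATA factors, to CACCC or CCNCNCCC boxes, to the CCAAT box or to the TATAAA form of the TATA box.
Nprl3: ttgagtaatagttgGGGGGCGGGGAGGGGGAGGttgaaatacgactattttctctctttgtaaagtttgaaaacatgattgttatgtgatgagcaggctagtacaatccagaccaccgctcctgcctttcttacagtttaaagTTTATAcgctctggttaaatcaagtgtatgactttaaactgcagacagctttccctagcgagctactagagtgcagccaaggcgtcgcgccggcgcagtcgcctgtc
Hba-x: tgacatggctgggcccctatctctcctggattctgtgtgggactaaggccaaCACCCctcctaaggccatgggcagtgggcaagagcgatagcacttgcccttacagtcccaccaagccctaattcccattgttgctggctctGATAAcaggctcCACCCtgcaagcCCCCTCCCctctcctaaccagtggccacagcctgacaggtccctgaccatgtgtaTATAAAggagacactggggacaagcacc
Hba-a1: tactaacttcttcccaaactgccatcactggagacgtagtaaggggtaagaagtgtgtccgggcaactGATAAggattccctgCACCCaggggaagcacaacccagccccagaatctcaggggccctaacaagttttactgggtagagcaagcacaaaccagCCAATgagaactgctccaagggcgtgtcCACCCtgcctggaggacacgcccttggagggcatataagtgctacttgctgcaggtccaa
Hba-a2: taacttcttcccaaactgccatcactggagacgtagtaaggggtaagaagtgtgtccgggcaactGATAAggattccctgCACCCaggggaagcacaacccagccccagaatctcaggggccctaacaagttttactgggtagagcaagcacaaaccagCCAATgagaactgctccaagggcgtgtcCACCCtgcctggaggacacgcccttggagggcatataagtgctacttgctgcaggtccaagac

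Hba-a1 and Hba-a2 shared an identical stretch of 297 of the 300 bases that the table holds for each gene, shifted by 3 bases. No other pair of the 4 genes shared more than 10 bases in a row. Both adult promoters held CCAAT, 88 bases before the Hba-a1 start and 91 before the Hba-a2 start, a motif present in 33.8% of 32851 mouse promoter sequences of this length. Hba-x and Nprl3 held TATAAA (12.4% of promoters), at 28 bases before the start in Hba-x and on the opposite strand at 107 bases in Nprl3. Both adult promoters lacked this exact form but read tataag shortly before the start. Other forms of the TATA box were not searched, so its absence from them is not shown. CCNCNCCC, a match for the erythroid factor KLF1, was found in Hba-x and Nprl3 (45.9% of promoters). CANNTG, the E-box, was found in all 4 (66.2%). AGATAA, one of the forms bound by the erythroid factor GATA1, was in none (9.99%). TGATAA, another of these forms, the shorter GATAA, which both contain, and CACCC were searched after the sequences had been seen, and all were in the 3 globin promoters and not in that of Nprl3 (7.94%, 22.6% and 52.0% of promoters). GATAA stood 107 bases before the start of Hba-x, 182 before that of Hba-a1 and 185 before that of Hba-a2. A match is a description of letters and shows no binding.

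The locus was far more densely marked than the rest of the genome in every library. H3K27ac peaks covered 48.7% and 45.9% of the locus, against 2.52% and 2.07% of the rest of the genome. H3K4me1 peaks covered 57.7%, 49.3% and 52.9% of the locus, against 5.08%, 3.56% and 4.12% of the rest. H3K4me2 peaks covered 50.5% and 52.1%, against 3.31% and 3.58%. H3K27ac, H3K4me1 and H3K4me2 thus lay over similar shares of the locus, while H3K4me3 peaks covered 14.9% and 21.5%, against 1.00% and 1.30% of the rest. Proerythroblast ATAC peaks covered 3.94% and 5.02% of the locus, against 0.378% and 0.554% of the rest.

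**Figure D1:**
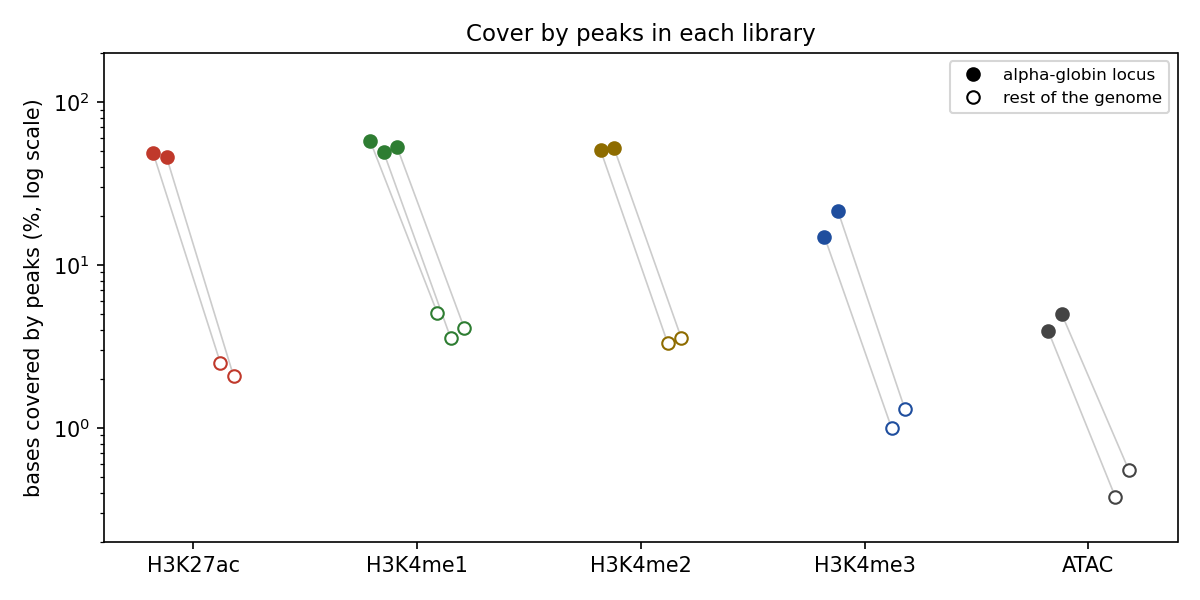
Share of bases under peaks, in percent on a log scale, for each library, with the alpha-globin locus as filled points and the rest of the genome as open points, joined within a library. All 11 libraries lie higher in the locus, and H3K27ac has the widest gap, with ratios of 19.3 and 22.1.

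The ratio of cover in the locus to cover in the rest averaged 20.7 ± 2.01 (SD, n = 2) for H3K27ac and 12.7 ± 1.27 (SD, n = 3) for H3K4me1. It was 14.9 ± 0.516 for H3K4me2, 15.7 ± 1.17 for H3K4me3 and 9.75 ± 0.972 for ATAC (SD, n = 2 each). The H3K27ac ratios did not overlap those of any other group, the nearest being 16.5 in H3K4me3 replicate 2. Over all 11 libraries the mean log2 ratio was 3.82 ± 0.38 (SD), higher in 11 of 11, with p = 0.000977 in a two-sided exact sign-flip permutation test, the smallest that 2048 flips can give. All libraries look at a single locus that holds known enhancers and globin genes and was chosen with earlier results of these data known. A higher cover than in the rest was therefore likely beforehand, and the flips treat libraries of 5 groups alike. This p speaks for these libraries only and does not test the locus against other loci. Among 18366 consecutive windows of the same length along the genome, with no test, 54 (0.294%) had consensus H3K27ac cover at or above the 47.5% of the locus, counting the locus itself. A consensus region is a merged stretch of a group's peaks that holds a peak of each library. The like shares were 0.305% for H3K4me1, 0.0381% for H3K4me2 (7 windows), 0.0327% for H3K4me3 (6 windows) and 0.196% for ATAC. By consensus cover the locus thus stood highest in H3K4me2 and H3K4me3, while by ratio to the rest it stood highest in H3K27ac. Consensus cover joins the peaks of all libraries. For H3K4me3 it was 21.8% of the locus, against 14.9% and 21.5% in the single libraries, so it leans on replicate 2.

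Between groups, H3K27ac, H3K4me1 and H3K4me2 each covered more of the locus than H3K4me3 with no overlap of libraries. H3K4me3 was also the lowest of these marks in the rest of the genome, with a mean of 1.15%. The means there were 2.30% for H3K27ac, 4.25% for H3K4me1 and 3.44% for H3K4me2. Differences in points at the locus therefore also carry the genome-wide share of each mark. The difference was 29.0 percentage points for H3K27ac minus H3K4me3, 35.1 for H3K4me1 minus H3K4me3 and 33.0 for H3K4me2 minus H3K4me3. H3K27ac minus H3K4me1 was -6.05 points and H3K27ac minus H3K4me2 was -4.00, each with H3K27ac lower. H3K4me1 minus H3K4me2 was 2.05 points, and these libraries overlapped. In two-sided exact permutation tests over the 10 pairs of groups, raw p ran from 0.1 to 0.7 and p adjusted by Benjamini-Hochberg was 0.37 for 9 pairs and 0.7 for H3K4me1 against H3K4me2. With these numbers of libraries no pair can go below 0.1 for 3 against 2 or 0.333 for 2 against 2, so none could pass 0.05. Some titles carry date-like tags, and within a shared tag H3K27ac minus H3K4me3 was 27.1 points, H3K27ac minus H3K4me2 was -1.80, and H3K4me2 minus H3K4me3 was 28.9 and 37.1. No tag is shared by H3K4me1 or ATAC with another group.

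The widest H3K27ac peak of the locus was a single acetylated domain in each library that ended before the adult globin genes. In H3K27ac replicate 1 it was 1 peak of 43.196 kb, chr11:32134929-32178124, with a fold enrichment of 10.0, the peak caller's ratio of signal to local background. In replicate 2 it was 1 peak of 41.803 kb, chr11:32135251-32177053, with a fold enrichment of 7.71. By fold enrichment these ranked 12th of 28387 peaks and 29th of 23733, and by width 11th and 8th. Fold enrichments are the authors' values for each peak, and they were set against other peaks of the same library only. The domain was named for its width in these lists, so its H3K27ac values describe it and test nothing.

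**Figure D2:**
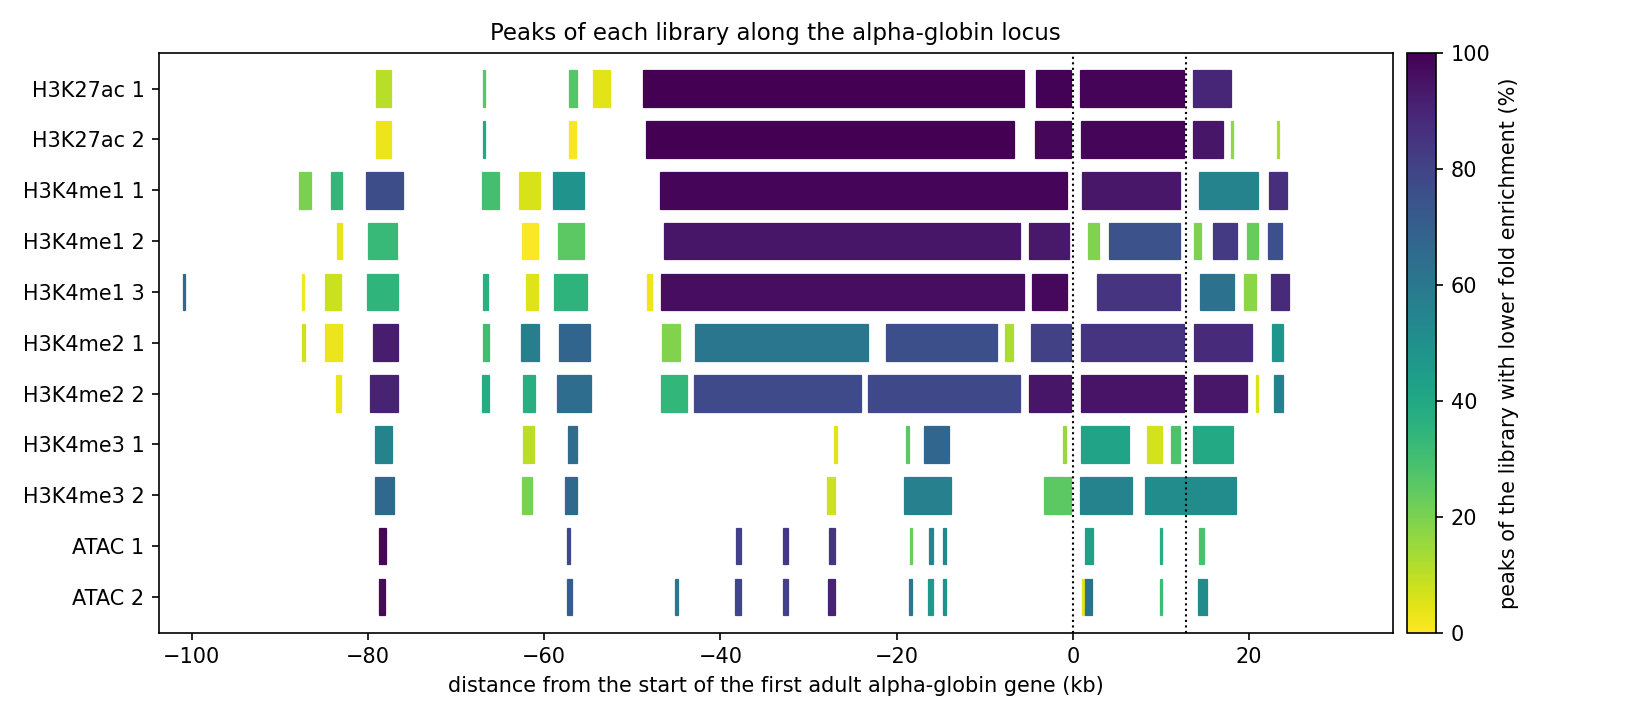
Peaks of each library as boxes along the locus, by distance in kb from the start of the first adult alpha-globin gene, coloured by the percentage of that library's peaks with lower fold enrichment. Dotted lines mark the adult gene starts, and the 43.196 kb H3K27ac peak of replicate 1 and its counterpart in replicate 2 lie before the first of them.

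The other marks divided the domain differently. H3K4me1 also ran nearly unbroken through it, with a widest peak of 46.2 kb in replicate 1, 40.3 kb in replicate 2 and 41.1 kb in replicate 3. The H3K4me1 peak of replicate 1 ran on past the end of the acetylated domain to 32183081, just before the first adult gene. H3K4me1 covered 95.2% ± 1.66 of the domain (SD, n = 3). H3K4me2 covered 86.3% ± 6.62 (SD, n = 2) but in 4 peaks in replicate 1 and 3 in replicate 2, the widest 19.669 and 19.024 kb. H3K4me3 covered 11.3% ± 4.39 (SD, n = 2), in 3 peaks in replicate 1 and 2 in replicate 2. ATAC peaks covered 7.21% ± 1.42 (SD, n = 2), in 6 and 7 peaks. Merged over libraries, the consensus H3K4me1 region was chr11:32136855-32183317 (46.463 kb), and H3K4me2 lay in chr11:32136981-32139967 (2.987 kb) and chr11:32140673-32177699 (37.027 kb). Of the 123 peaks at the locus, 45 lay before the domain, 31 overlapped it and 47 lay after it.

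The H3K27ac peaks of the domain and the widest H3K4me1 peaks stood near the top of their lists by fold enrichment, and no H3K4me3 peak of the locus did. The 11 H3K4me3 peaks of replicate 1 stood above 4.48% to 67.2% of their list (median 28.3%), and the 8 of replicate 2 above 7.46% to 66.3% of theirs (median 53.5%). The widest H3K4me1 peaks had fold enrichments of 4.94, 3.53 and 3.94, above 98.8%, 94.5% and 96.9% of all peaks of their libraries. The strongest H3K4me2 peak had a fold enrichment of 7.64 in replicate 1, at chr11:32104320-32107120, above 92.0% of its list. In H3K4me2 replicate 2 the strongest was at chr11:32184604-32196274, with 6.45, above 94.8%. The strongest H3K4me3 peaks, at chr11:32166771-32169622 in replicate 1 (9.52) and chr11:32126081-32127469 in replicate 2 (9.96), were the highest of these. By width, the consensus H3K4me3 region chr11:32191940-32202188, of 10.249 kb, was 36th of 13600. Its width is that of 1 peak of replicate 2, while replicate 1 had 3 peaks there of 1.668, 1.113 and 4.519 kb, the widest of which was 547th by width of 14027.

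Both proerythroblast libraries shared 11 open sites at the locus, 2 before the domain, 6 within it and 3 after it. A site count at least this high was found in 35 of the 18366 windows (0.191%). Among 18236 consensus H3K27ac regions, 5 (0.0274%) held at least as many sites as the 6 of the domain. The domain was picked for its width, 18th of these regions, and they were not matched by width. A wide region has room for more sites, so this share cannot be told apart from the width. All 11 sites met H3K27ac, H3K4me1 and H3K4me2, against 75.8%, 85.5% and 95.6% of all 16271 consensus ATAC sites. H3K4me3 was met by 9 of 11, against 75.6%. The other 2 had H3K27ac without H3K4me3, against 13.7% of all sites. All 4 marks met at 9 sites, against 57.3%, and no mark at 0 of 11, against 3.81%. With 11 sites of a single locus, the shares for H3K4me1, H3K4me2, H3K4me3, H3K27ac without H3K4me3 and no mark are near their background. The sites are also not separate observations of H3K27ac, since 6 lie under 1 region of it and 2 under another. At the 2 sites before the domain, the H3K27ac peaks of replicate 2 had −log10 q of only 2.91 and 2.38. With −log10 q of at least 5, 9 of the 11 sites met H3K27ac, and the share over all sites at that cutoff is not given here. None of these shares was tested.

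The sites were of ordinary accessibility as a group, with a wide spread along the locus. Their median fold enrichment was 6.79 in ATAC replicate 1 and 7.03 in replicate 2, against 6.86 and 7.95 over all consensus sites. The strongest, 78.4 kb before the first adult gene start at chr11:32104971-32105777, had fold enrichments of 12.8 and 13.0, above 98.3% and 97.4% of the lists. The next in both libraries was the site 27.4 kb before the gene, chr11:32155962-32156737, with 10.0 and 10.9. It was followed by those 32.6 kb before it, chr11:32150815-32151372 (9.84 and 9.28), and 37.9 kb before it, chr11:32145379-32146049 (9.53 and 9.04). The fifth in both was 57.2 kb before it, chr11:32126241-32126842, with 9.23 and 7.93.

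**Figure D3:**
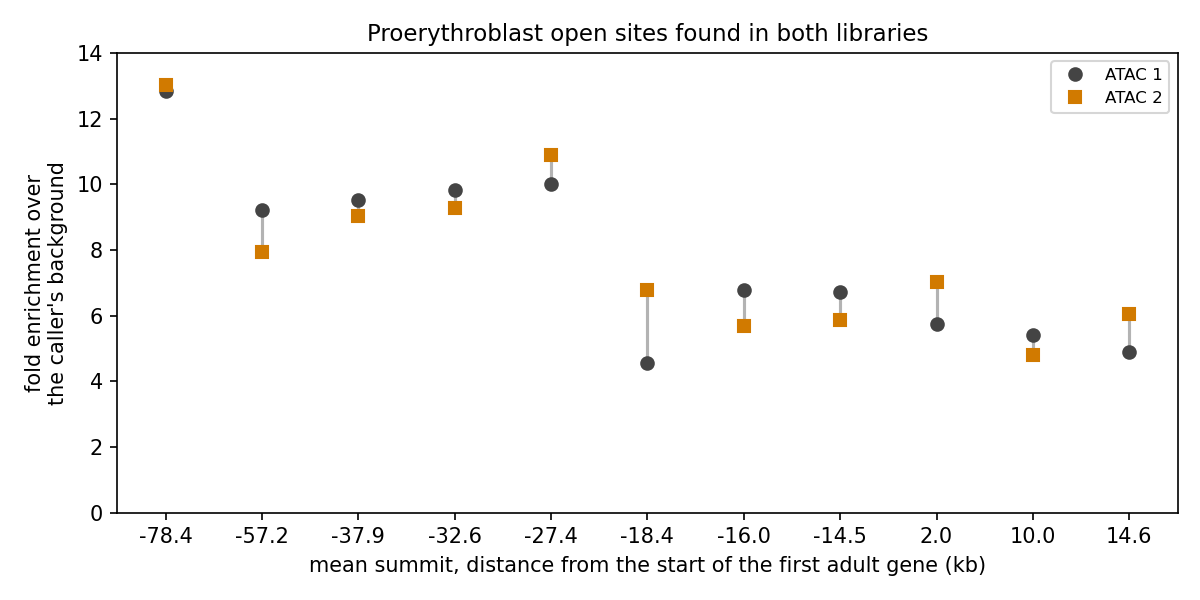
Fold enrichment over the caller's background of the 11 open sites found in both proerythroblast ATAC libraries, placed in order along the locus with the distance of the mean summit from the start of the first adult gene. The 5 sites farthest before the gene lie between 7.93 and 13.0 in both libraries, and the other 6 lie between 4.56 and 7.03.

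The 6 remaining sites were weaker in both libraries and came in another order in each. Nearer the globin genes in the domain, chr11:32165095-32165441 had 4.56 in replicate 1 and 6.79 in replicate 2, the largest gap between the libraries at any of the 11 sites. Its neighbours chr11:32167299-32167843 (6.79 and 5.68) and chr11:32168980-32169308 (6.71 and 5.87) lay 1.49 kb apart by mean summit, the closest spacing at the locus. Beyond the adult gene starts, chr11:32185077-32185948 had 5.73 and 7.03, chr11:32193569-32193814 had 5.40 and 4.81, and chr11:32197954-32198931 had 4.88 and 6.05. The 5 strongest sites kept the same order in both libraries, and the Spearman correlation over the 11 sites, which share their libraries and are not replicates, was 0.782. Summits agreed within 100 bp at 9 of 11 sites and differed by 146 bp at chr11:32185077-32185948 and by 379 bp at chr11:32197954-32198931.

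By presence, 9 open sites had all 4 marks and 2 lacked H3K4me3 alone, but the fold enrichments of the marks over them varied along the locus. Open sites are from proerythroblasts and marks from whole fetal liver, so an overlap does not show both in the same cells. The strongest open sites outside the domain had weak acetylation. At chr11:32104971-32105777 the H3K27ac peak had fold enrichments of 2.44 and 2.10, above 10.6% and 2.81% of its lists. H3K4me3 there had 7.85 and 9.93, above 55.2% and 66.2% of its own lists. At chr11:32126241-32126842, H3K27ac had 2.62 and 1.97, above 26.5% and 0.919% of the lists, and H3K4me3 had 9.22 and 9.96, above 65.0% and 66.3%. The 3 sites after the first adult gene start differed from these, with H3K27ac of 4.45 to 6.65, above 89.3% to 98.9% of the lists, and H3K4me3 of 3.00 to 7.61, above 6.83% to 55.2% of the lists. Each fold enrichment is that of a whole peak and not of the site. The first 2 of these 3 sites lay under the same H3K27ac peak, of 11.753 and 11.68 kb in the 2 libraries. The last 2 lay under the same H3K4me3 peak of 10.249 kb in replicate 2.

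**Figure D4:**
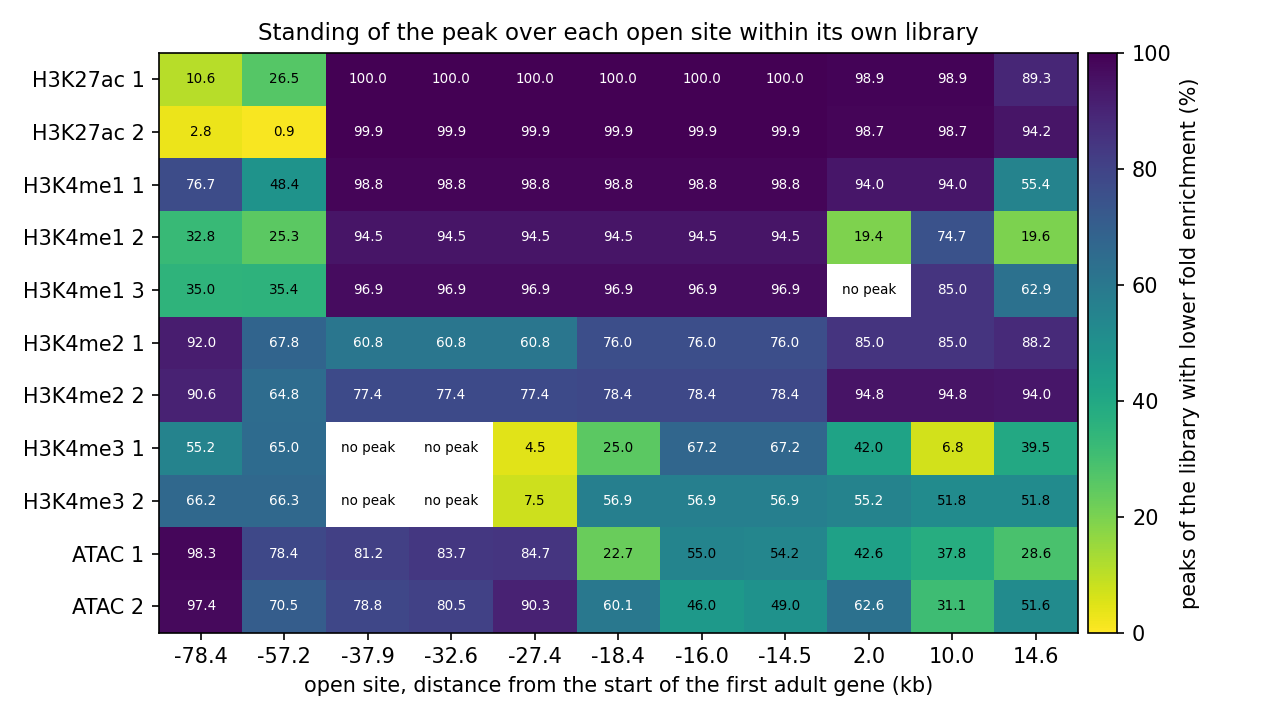
For each library (rows) and each of the 11 open sites (columns, by distance in kb from the start of the first adult gene), the percentage of that library's peaks with lower fold enrichment than the peak over the site, with white cells where no peak lay. H3K27ac peaks stand at 0.919% to 26.5% over the first 2 sites and at 99.9% and above over the 6 sites of the domain, which all lie under the same peak.

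Within the domain, the 3 most accessible sites had no H3K4me3 peak or the weakest ones by fold enrichment. The sites 37.9 and 32.6 kb before the first adult gene had no H3K4me3 peak in either library. The most accessible of the domain, 27.4 kb before it, met weak H3K4me3 peaks (consensus chr11:32155764-32156945) of 2.89 in both libraries, above 4.48% and 7.46% of the lists, which covered 19.7% of the site in replicate 1 and 98.7% in replicate 2. The sites 18.4, 16.0 and 14.5 kb before the gene lay in the H3K4me3 consensus region chr11:32164583-32169845, of 5.263 kb, with fold enrichments of 9.52 in replicate 1 and 7.97 in replicate 2 at their strongest. H3K4me3 replicate 1 split that region into 2 peaks, the weaker of which (3.90) touched the site at 18.4 kb over 11.2% of its length. All 6 sites lay under the same H3K27ac peak and within 1 H3K4me1 peak per library, so these marks do not tell them apart in the lists.

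Around both open sites that lie before the domain, the H3K27ac and H3K4me3 regions were narrower than those of H3K4me1 and H3K4me2. Around the site 78.4 kb before the first adult gene, the consensus H3K27ac region chr11:32104566-32106312 measured 1.747 kb, the H3K4me1 region chr11:32103505-32107683 measured 4.179 kb, the H3K4me2 region chr11:32103893-32107121 measured 3.229 kb and the H3K4me3 region chr11:32104467-32106620 measured 2.154 kb. Around the site 57.2 kb before the gene they measured 0.972 kb for H3K27ac (chr11:32126485-32127456), 3.879 kb for H3K4me1 (chr11:32124662-32128540), 3.873 kb for H3K4me2 (chr11:32125141-32129013) and 1.389 kb for H3K4me3 (chr11:32126081-32127469). H3K27ac was thus the narrowest mark at both. At the first of these sites the H3K4me2 region lay wholly within that of H3K4me1, while at the second 87.8% of it did and it ran on past the H3K4me1 end. There the H3K4me1 peaks measured 3.568, 2.913 and 3.737 kb and the H3K4me2 peaks 3.566 and 3.873 kb, so the widths of these marks overlapped between libraries.

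Between the adult gene starts H3K27ac was about as wide as H3K4me2, and after the second start its consensus region was narrower than those of H3K4me1 and H3K4me2. Between the adult gene starts, the consensus H3K27ac region chr11:32184567-32196319 measured 11.753 kb, with a mean fold enrichment of 6.10 ± 0.768 (SD, n = 2). The H3K4me1 region there, chr11:32184790-32195884, measured 11.095 kb, with 3.37 ± 0.586 (SD, n = 3). Its width is that of 1 peak of replicate 1, while replicate 2 had peaks of 1.25 and 7.98 kb there and replicate 3 a peak of 9.455 kb. The H3K4me2 region, chr11:32184598-32196277, measured 11.68 kb, with 6.67 ± 0.312 (SD, n = 2). H3K4me3 lay in chr11:32184530-32190466 (5.937 kb, 6.68 ± 1.30, SD, n = 2) and in the region of 10.249 kb that crosses the second start. After the second start, H3K27ac ran over 4.563 kb (chr11:32197378-32201940), H3K4me1 over 7.221 kb (chr11:32197501-32204721) and H3K4me2 over 6.68 kb (chr11:32197418-32204097). The widest single peaks in these regions were 4.302 and 3.405 kb for H3K27ac and 6.68 and 6.086 kb for H3K4me2. For H3K4me1 they were 6.705, 2.743 and 3.923 kb, so its widths overlapped those of H3K27ac between libraries. The last consensus regions of the locus were H3K4me1 at chr11:32205861-32208269 and H3K4me2 at chr11:32206344-32207554, with no H3K4me3 and a single weak H3K27ac peak, of replicate 2, of 2.36.

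Some stretches were marked without an open site. The farthest upstream consensus regions, H3K4me1 at chr11:32098796-32100768 and H3K4me2 at chr11:32098807-32100723, had neither H3K27ac nor H3K4me3. The consensus H3K27ac region chr11:32116748-32117042 (fold enrichments 2.62 and 2.63) met consensus H3K4me2 (chr11:32116653-32117436) but no H3K4me3 peak or ATAC site. H3K4me1 peaks lay over it in replicates 1 and 3 (2.45 and 2.44) but not in replicate 2, so it had no consensus H3K4me1. The consensus H3K4me3 region chr11:32121221-32122549 (3.17 and 3.43) had no H3K27ac peak and no ATAC site, and met H3K4me1 (chr11:32120874-32123209) and H3K4me2 (chr11:32121039-32123069) over its whole length. Between the domain and the first adult gene, chr11:32179452-32183491 carried H3K27ac of 7.32 and 5.34 over 4.04 kb, without an ATAC peak in either library. H3K4me2 lay over chr11:32178728-32183454. H3K4me3 in replicate 1 was a peak of 351 bp (chr11:32182603-32182953, 3.36). In replicate 2 it was a peak of 3.07 kb (chr11:32180415-32183484, 3.66), which sets the consensus region. The 1327 bp between this H3K27ac region and the domain held no H3K27ac or H3K4me3 peak. H3K4me1 covered 100%, 50.7% and 27.4% of those bases and H3K4me2 36.9% and 54.6%.

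At the starts of both adult genes the peaks broke off. H3K27ac ended 208 and 244 bp before the first start and began again 866 and 897 bp after it, leaving 1075 and 1142 bp without a peak. At the second start it ended 180 and 222 bp before and began again 877 and 903 bp after. H3K4me2 left 1143 and 1158 bp at the first start and 1140 and 1146 bp at the second. H3K4me1 left more, 1708, 2056 and 3386 bp at the first and 2109, 1664 and 2255 bp at the second. H3K4me3 left 1639 and 1045 bp at the first, and 1474 bp at the second in replicate 1, whereas in replicate 2 a single peak of 10.249 kb crossed the second start.

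**Figure D5:**
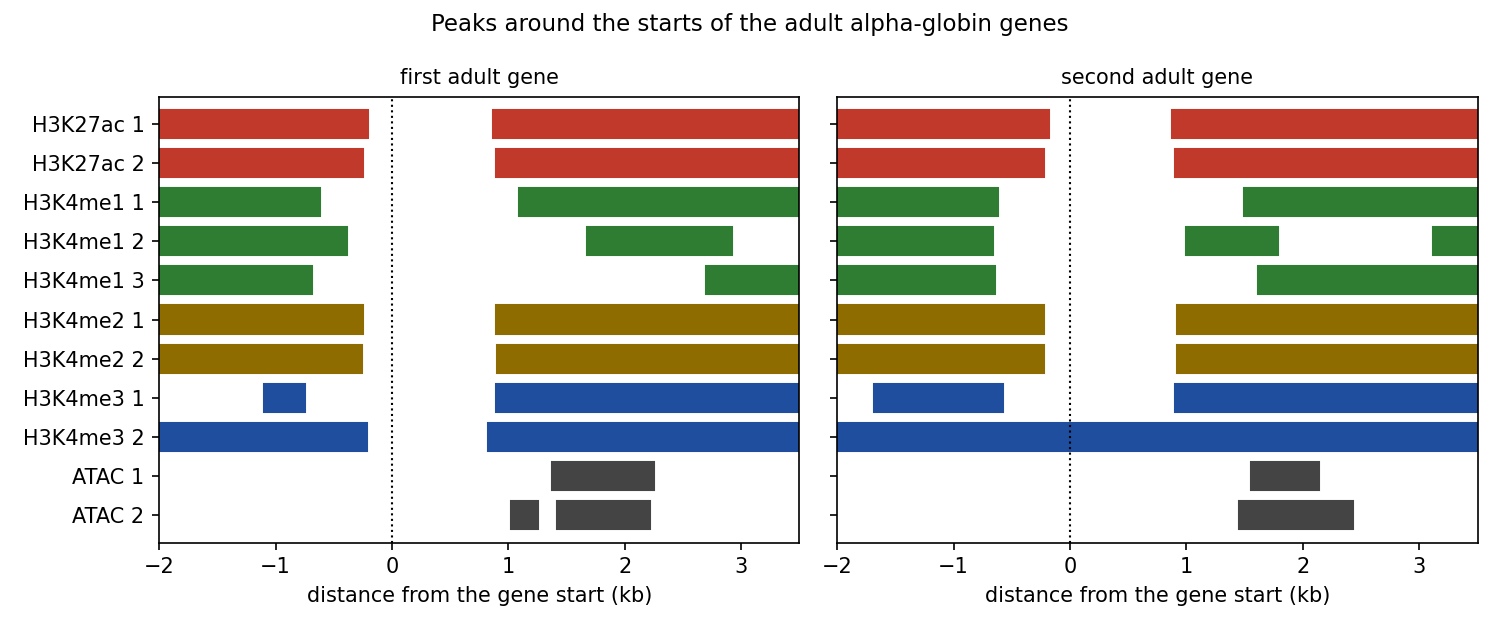
Peaks of each library within 2 kb before and 3.5 kb after the start of each adult alpha-globin gene (dotted line), as boxes coloured by assay. All 11 libraries lack a peak over the first start, and at the second start the exception is H3K4me3 replicate 2.

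The 9 histone libraries together left 1038 bp uncovered at the first adult start, chr11:32183492-32184529, and no ATAC peak lay there either. From the upstream edge of the domain to 5 kb beyond the second start, it was the only stretch that no histone library covered. The breaks at both genes had nearly the same place relative to the start, although the starts are known here only to the nearest 100 bp. The identical stretch of 297 bases named above runs past the printed sequences and spans both starts. A read that lies wholly in identical sequence cannot be assigned to a particular copy. No sequence was compared beyond the 300 bases held for each gene, so most of the 1038 bp was not compared. How the authors treated such reads is not given in the sources used here, and the part of this in the breaks was not tested. A missing peak there does not show that the adult promoters were closed or unmarked.

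Behind both breaks the pattern repeated. The open site after the first adult start had its summit 2073 and 1927 bp beyond it, and the open site after the second start had its summit 1978 and 1599 bp beyond that. H3K4me3 and H3K27ac regions covered both sites in every library of those marks. H3K4me1 varied between libraries there. Over the site after the first start its fold enrichment was 4.02 in replicate 1 (above 94.0% of the list) and 2.29 in replicate 2 (above 19.4%), with no peak in replicate 3. Over the site after the second start it was 2.76, 2.29 and 2.74, above 55.4%, 19.6% and 62.9% of the lists. Both gene copies are followed in the RefSeq order by a theta-globin gene, Hbq1b after Hba-a1 and Hbq1a after Hba-a2. The remaining open site, chr11:32193569-32193814, lay 2.84 kb before the second start and had no counterpart before the first.

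Of the 123 peaks, 111 lay in a consensus region of their own group and 12 did not. Of the 12, 8 were seen in 1 library alone, and 4 were H3K4me1 peaks of replicates 1 and 3 that overlap each other at 2 places, chr11:32095921-32097271 and chr11:32116636-32118559 in replicate 1, with no peak in replicate 2. The strongest of the 12 was an ATAC peak of replicate 2 at chr11:32138504-32138847, inside the domain 45.0 kb before the first adult gene, with a fold enrichment of 6.83, above 60.5% of its list. Replicate 2 has 28980 peaks against 18441 in replicate 1, and with depth unknown the absence from replicate 1 cannot be read as closed chromatin. The other ATAC peak of replicate 2 alone, chr11:32184725-32184953, had 3.26. The 6 histone peaks of 1 library alone had fold enrichments of 1.98 to 2.79, and the 4 H3K4me1 peaks of replicates 1 and 3 had 1.92 to 2.45.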

How the data were processed

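Each library has a peak list of its own in the authors' deposited files, in mm9. Per the submitters' processing notes, reads went through Trimmomatic 0.32 and Bowtie 1.0.1, and SAMtools and MACS2 are also named. Settings, the MACS2 version and its control are not stated there. Each deposited peak has a fold enrichment (a ratio of signal to the caller's background), −log10 of p and of q, and a score derived from the −log10 q, and ATAC peaks have a summit. The lists hold no read counts, so depth is unknown and a shorter list may be a shallower library.

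The 7 peaks outside the autosomes, X and Y were set aside. Positions are counted from 1. Cover was taken per library in the window and over the rest of 2568.43 Mb, the span of peaks. An overlap needed 1 bp. Tests were exact permutations over libraries, in Python 3.11.15 with NumPy 2.4.6 and SciPy 1.17.1, and interval functions were tested on simulated data. Consecutive windows and RefSeq promoters gave backgrounds without a test. No gene annotation of mm9 was used, so marker genes of fetal liver cell types were not placed. The regions named are all consensus ATAC sites, all consensus mark regions (the 10 widest for H3K4me2, which has 11, and the 11th because an H3K27ac region met it) and the strongest or widest peaks per library. The members, lists and tests were chosen with earlier results of these data known. Alternatives were peaks with −log10 q of at least 5, leaving out each library, any library in place of every library, a mark over at least 50% of a site, a replicate block, a shared title tag and the rest of chromosome 11.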

Additional observations from a re-analysis of the deposited data

How the results depend on the processing

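Changes of direction were found only among the covers of H3K27ac, H3K4me1 and H3K4me2, where no difference passed a test. With −log10 q of at least 5, H3K27ac minus H3K4me1 was 2.64 points and H3K4me1 minus H3K4me2 was -7.05. Without H3K4me1 replicate 1 H3K4me1 minus H3K4me2 was -0.13 points. The cause was not tested. Leaving out each library in turn, the differences ran from 41.4 to 44.2 points for H3K27ac minus ATAC, 25.7 to 32.3 for H3K27ac minus H3K4me3, -8.04 to -3.87 for H3K27ac minus H3K4me1, -5.39 to -2.60 for H3K27ac minus H3K4me2 and -0.13 to 4.04 for H3K4me1 minus H3K4me2. The mean log2 ratio of the locus to the rest was 3.76 to 3.88 in the same runs, 4.17 with −log10 q of at least 5 and 3.05 against chromosome 11 alone, all with the smallest exact p their numbers of libraries allow. With the libraries paired by number as a replicate block, H3K27ac minus H3K4me3 was 29.0 points (exact p = 0.5, the smallest 2 pairs allow), and no call or direction changed. The numbers are not tied to a shared litter or day in the labels. The count of open sites was 11 to 13, that with H3K27ac 9 to 13, that with H3K4me3 8 to 10 and that with H3K27ac and no H3K4me3 2 to 3 over all settings. Choices added after the data were seen gave 1038 to 1075 bp for the uncovered stretch at the first adult start. Without H3K4me3 replicate 2, 1058 bp were uncovered at the second, against 0 bp with it. Without H3K27ac replicate 1 the domain measured 41.803 kb. Unknown depth limits every statement that a peak was missing.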
